A study of Mus musculus with 4 samples.

Results

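Axon guidance genes encode the signals that steer growing nerve fibres and the receptors that read them. The genes described here are the ephrins (Efna, Efnb), Eph receptors (Epha, Ephb), semaphorins (Sema), plexins (Plxn), slits (Slit), Robo receptors, netrins (Ntn) and Unc5 receptors of the mouse. They were chosen by their symbol and by holding at least 50 unique molecular identifiers (UMIs, 1 per captured RNA molecule) over all libraries. Of 70 genes whose symbols match, 65 met that minimum, out of 31053 genes counted and 18512 that met it. The members just inside the limit were Robo4 with 66 UMIs, Sema3g with 110 and Epha1 with 114. The 5 genes outside it were Plxna4os2 with 27 UMIs, Plxna4os1 with 24, Ntn5 with 23, Unc5cl with 20 and Plxnb3 with 18. The members comprise 5 Efna, 3 Efnb, 9 Epha, 5 Ephb, 7 class 3 and 13 class 4 to 7 semaphorin, 9 Plxn, 3 Slit, 4 Robo, 2 Ntn and 5 Unc5 symbols. Among them are Unc50, which shares only its first letters with the netrin receptors, and Plxna4os3, a transcript from the strand opposite Plxna4.

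Nuclear RNA was profiled with the 10x droplet method in 4 libraries of mouse retina, each from a left eye: 2 from animals of 2.5 months, called wild type in the labels, and 2 from animals of 5 months, for which the labels give no genotype. The labels number the donors, so each library was taken as 1 animal, and nothing further on strain, sex or treatment was used. The file headers name Cell Ranger 7.1.0 in each 2.5-month library and 4.0.0 in each 5-month library, so effects of age and of this software cannot be told apart. The purpose of the age comparison is not stated.

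Slits are secreted proteins that repel growth cones through Robo receptors. Netrins act through Dcc, which can attract, and through Unc5 receptors, which repel. Semaphorins signal through plexins, the secreted class 3 members mostly with neuropilins as co-receptors, and ephrins are tethered to the cell surface and bind Eph receptor kinases on the neighbouring cell. In the retina these families are best known from development, when graded Eph receptors and ephrins map ganglion cell axons onto the brain and semaphorins with plexins sort neurites into layers. The libraries here come from adult eyes.

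The libraries held 7404 to 9963 barcodes and 19608067 to 36320257 UMIs, and 6 to 25 barcodes were shared between any pair of libraries. After removal of 27 barcodes of low quality and 1196 called doublets, 31103 nuclei remained, of which 28606 fell into clusters named from marker genes. The 10 classes tested held from 292 nuclei (melanocytes) to 8958 (rods), and their summed counts ran from 154906 to 9011076 UMIs per library. Fibroblasts, melanocytes and retinal pigment epithelium (RPE, the pigmented sheet behind the photoreceptors) lie outside the neural retina. The summed level of 10 rod genes in the other classes had a median of 13.1% to 19.1% of the rod level, depending on the library. The source of these UMIs, and the part of RNA from other cells in low levels of the members, was not tested.

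The members were unevenly spread over the classes. Of the 65, 60 passed the filter on low counts. Each of these 60 was called higher in at least 1 class than in the mean of the others. The calls are by edgeR's quasi-likelihood test with Benjamini-Hochberg adjustment over all genes. How many of all genes were so called was not counted, and single classes had 2504 to 5334 of 15057 genes higher. The 5 that were not tested were Efna4, Epha1, Robo3, Robo4 and Sema3g. For 34 of the 60 (56.7%) the lowest library of the top class lay above every library of every other class, against 28.6% of all 15057 genes tested. Müller glia, the radial support cells of the retina, were the top class by mean level of 13 of the 60, fibroblasts of 11, ganglion cells of 7, horizontal cells and melanocytes of 6 each and RPE of 5. Amacrine and bipolar cells were the top class of 4 members each, cones of 3 and rods of 1. Top classes were not counted over all genes, so these counts have no share of all genes beside them.

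**Figure D1:**
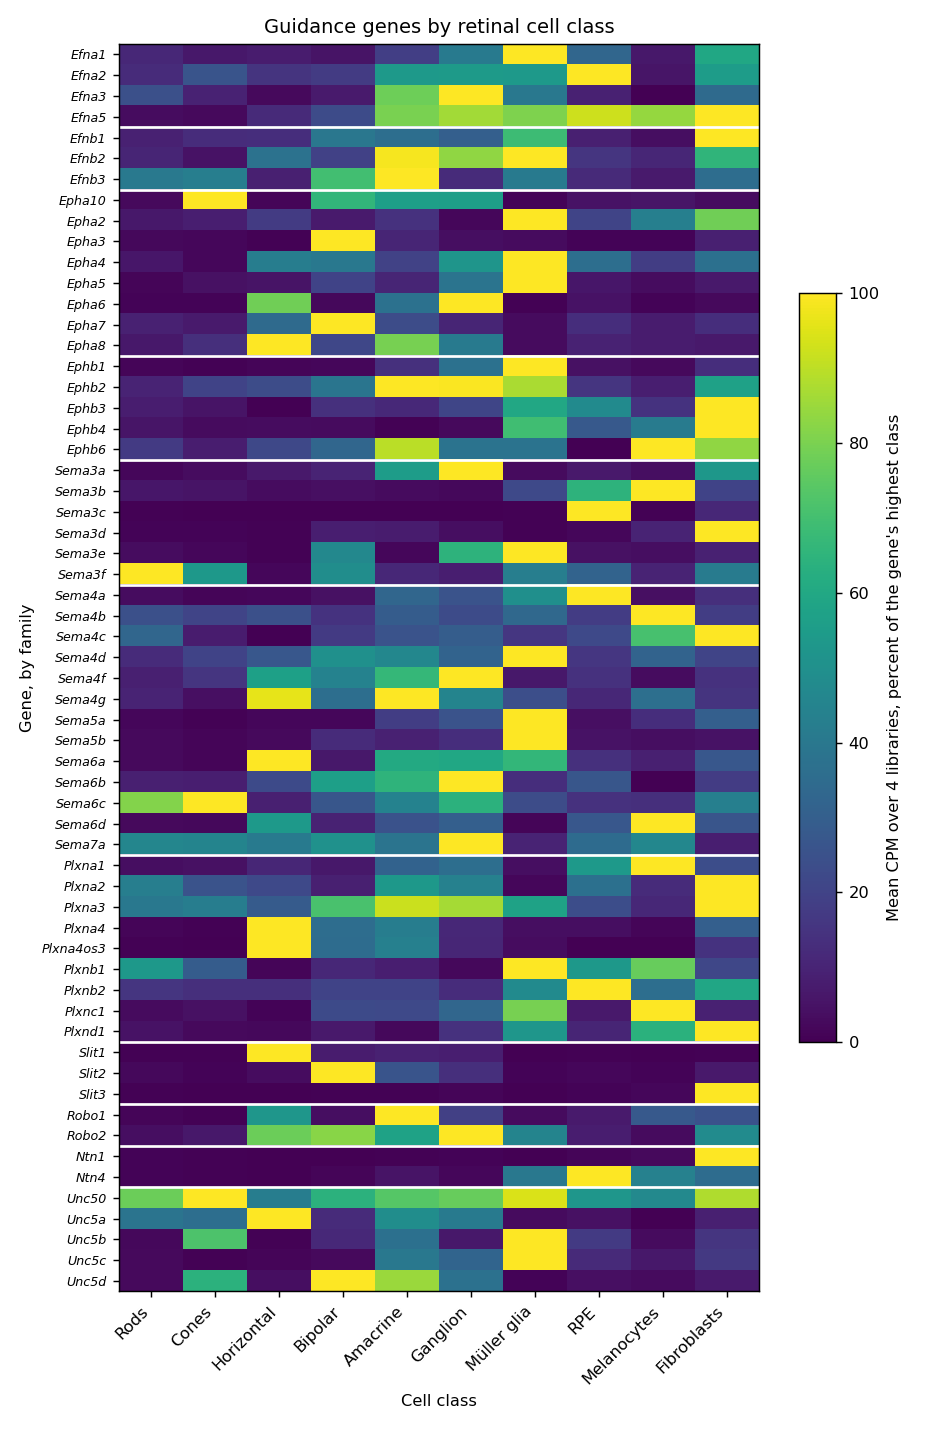
Mean level of each tested member in 10 cell classes (colour, UMIs per 1000000 UMIs of the class, or CPM, as percent of the gene's highest class, mean of 4 libraries), genes in rows by family and classes in columns. The photoreceptor columns are dark for most genes, and the brightest cells are spread over Müller glia, fibroblasts, ganglion, horizontal and pigmented classes.

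Photoreceptors stood at the low end. In rods 40 of 60 members were called lower and 6 higher, where 31.9% and 30.9% of all genes were lower and higher. In cones 37 were lower and 10 higher, beside 27.7% and 32.7% of all genes. The median log2 fold change of the members was -1.69 in rods and -1.57 in cones, while that of all genes was -0.06 and 0.02. Ganglion cells, the output neurons whose axons form the optic nerve, were at the other end with 45 members higher and 10 lower, beside 35.4% and 26.8% of all genes. Amacrine cells, interneurons of the inner retina, had 41 higher and 11 lower (33.3% and 23.5% of all genes). The member medians were 1.34 in ganglion and 1.20 in amacrine cells, and the medians of all genes 0.04 and 0.03.

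The other classes lay between. Fibroblasts had 35 members higher and 12 lower (28.3% and 23.0% of all genes) and Müller glia 32 higher and 18 lower (29.6% and 23.9%). In bipolar cells, which carry signals from photoreceptors inward, 26 were higher and 20 lower, beside 26.9% and 20.2% of all genes. Horizontal cells had 18 higher and 20 lower (17.6% and 17.4% of all genes), RPE 15 and 12 (17.3% and 14.4%), and melanocytes 15 and 24 (16.6% and 16.7%). The class sums differed in depth. In sums thinned to equal depth 34 members and 6480 genes in all could be tested. Of these, 21 members and 1557 genes were then higher in ganglion cells, 20 and 1414 in amacrine cells, 19 and 1613 in fibroblasts, 15 and 1522 in Müller glia, and 12 and 1227 in bipolar cells. Melanocytes had 10 members and 1601 genes higher, horizontal cells 9 and 1195, RPE 9 and 1451, cones 2 and 1436, and rods 1 and 1505.

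Values below are UMIs of the gene per 1000000 UMIs of the class (CPM), listed for the first and second 2.5-month library and then the first and second 5-month library. They are not divided by transcript length, so they compare 1 gene between classes and not 1 gene with another. CPM and the top classes use the raw class totals, while the tests and fold changes also scale for composition. The order of classes can therefore differ between them. A log2 fold change in the class comparison is the class against the mean of the other 9 classes, with its standard error (SE).

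The 3 slit genes had 3 different top classes. Slit1 (chromosome 19, 41600257 to 41743665, mm10) was a horizontal cell gene, with 270, 347, 321 and 297 CPM there and 28.4 CPM in amacrine cells, the class in the second place. Its log2 fold change in horizontal cells was 7.39 (SE 0.16, adjusted p = 3.694e-35), and melanocytes held no Slit1 UMI, so that horizontal cells were at least 103-fold higher against a floor of 3 counts over that class. All 4 horizontal libraries lay above all libraries of the other classes.

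Slit2 (chromosome 5, 47983138 to 48307733) was highest in bipolar cells with 2684, 2810.3, 2640.3 and 2504 CPM, followed by amacrine cells with 690 CPM (SD 99.2, n = 4). The fold change was 5.05 (SE 0.11, adjusted p = 3.211e-37). Slit3 (chromosome 11, 35121224 to 35708507) was a fibroblast gene with 914, 918, 837 and 411 CPM, and every other tested class had a mean of 12.3 CPM or less. Its fold change was 7.27 (SE 0.12), and the second 5-month library lay below the other fibroblast libraries but above every library of the other classes.

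**Figure D2:**
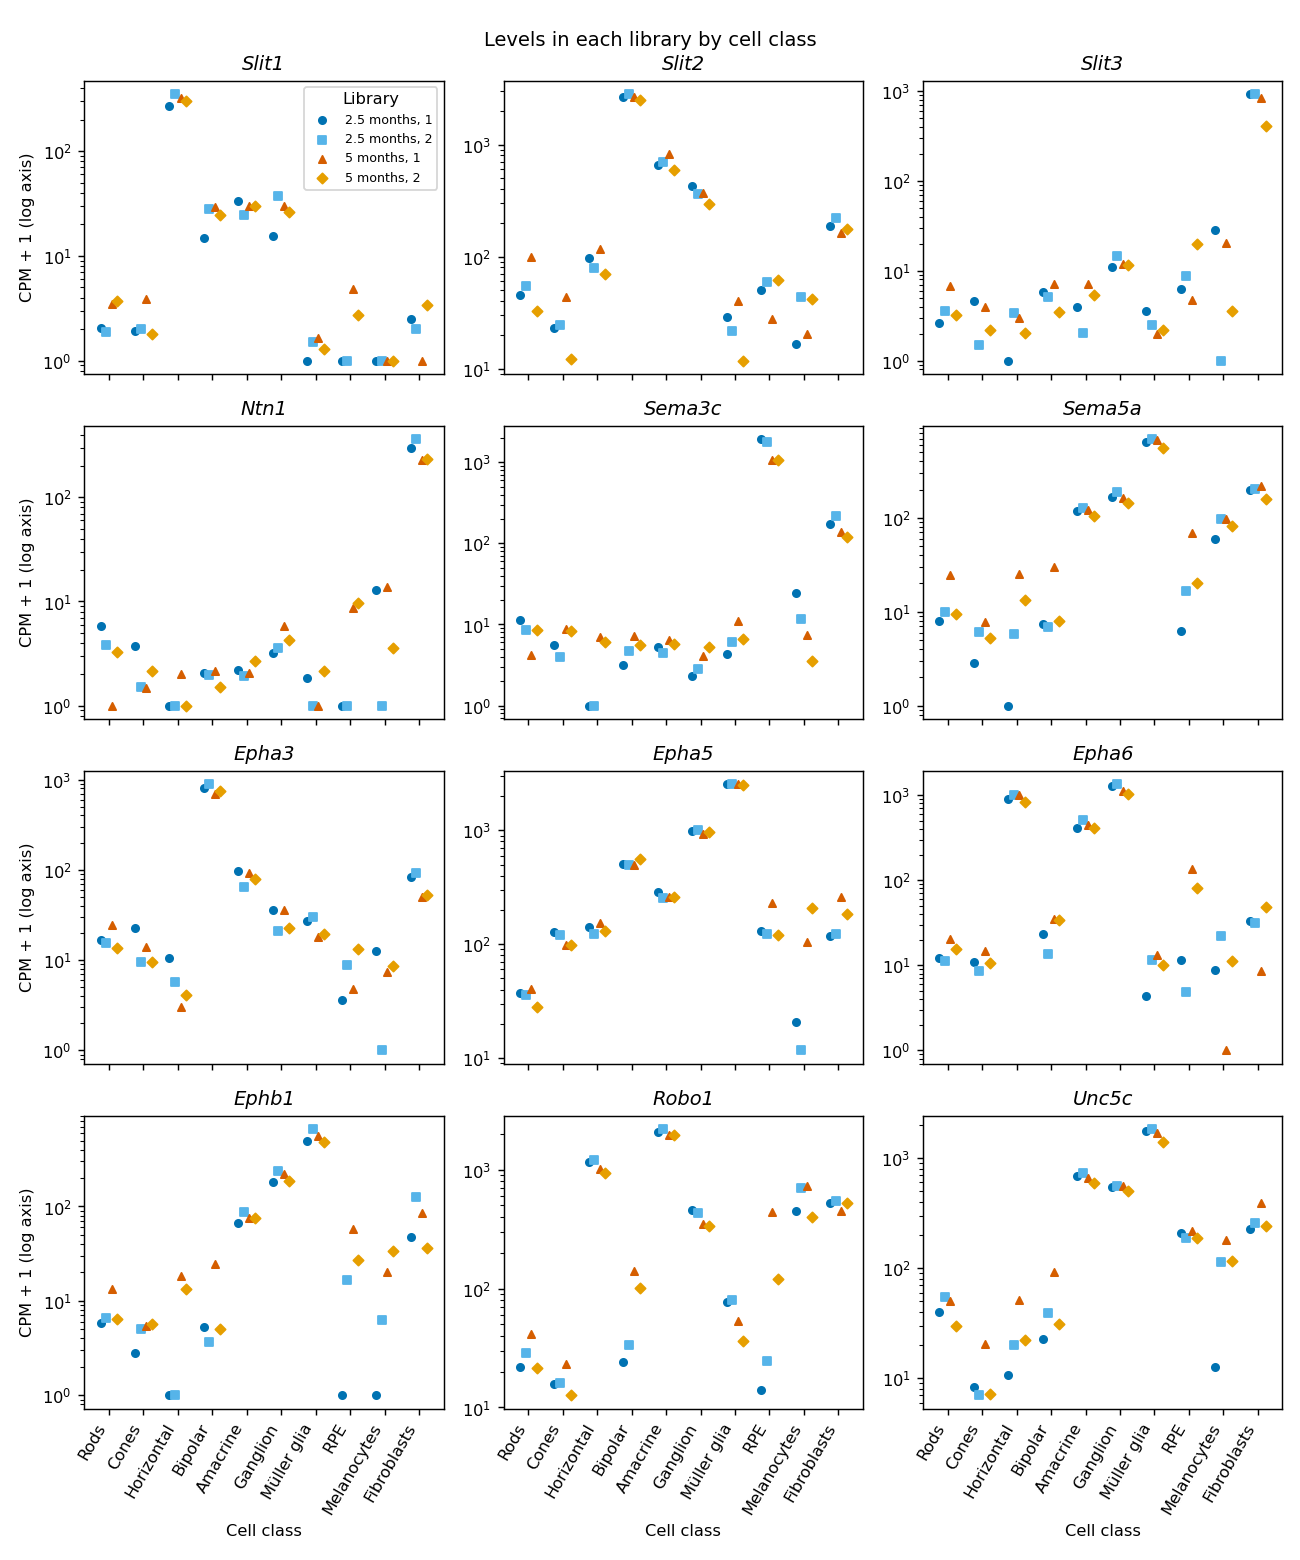
Levels of 12 members in each of 4 libraries (symbols) by cell class (horizontal axis), in CPM + 1 on a log axis. Libraries of 1 class lie close together in the top class, such as 270 to 347 CPM for Slit1 in horizontal cells, and scatter where few UMIs were counted, as in melanocytes and RPE.

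Both netrins that passed the UMI minimum were highest outside the neurons. Ntn1, the founding netrin, had 295, 361, 226 and 235 CPM in fibroblasts, and no other tested class had a mean above 6.80 CPM (log2 fold change 7.09, SE 0.15). Ntn4, a netrin of basement membranes, was highest in RPE with 417, 414, 345 and 243 CPM (4.68, SE 0.17), and next in melanocytes, Müller glia and fibroblasts with means of 155, 142 and 125 CPM. Among the class means of neurons and photoreceptors the highest for Ntn4 was 18.7 CPM, in amacrine cells.

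The class 3 semaphorins also had different top classes. Sema3c, a secreted semaphorin known from heart and vessel development, had 1929, 1769, 1068 and 1058 CPM in RPE, and fibroblasts followed with 162 CPM (log2 fold change 7.46, SE 0.12, adjusted p = 1.136e-41). Both 2.5-month RPE libraries were above both 5-month ones, a difference that the age test did not call (adjusted p = 0.303). Sema3d was highest in fibroblasts with 180, 229, 143 and 133 CPM (4.99, SE 0.15), and Sema3a, the classical collapsing factor, in ganglion cells with 147, 203, 143 and 156 CPM (3.83, SE 0.11).

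Sema3e, which binds Plxnd1 without a neuropilin, had 448, 386, 367 and 276 CPM in Müller glia and a mean of 238 CPM in ganglion cells, and the libraries of these classes overlapped (4.16 for Müller glia, SE 0.09). Sema3f, a ligand of neuropilin 2, was the only member with rods as its top class: 84.4, 71.2, 83.0 and 93.7 CPM in rods, 44.4 CPM (SD 3.42, n = 4) in cones and 40.6 CPM in bipolar cells. The rod and cone libraries did not overlap. Sema3b was highest in melanocytes (76.2 CPM) and RPE (49.3 CPM).

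Membrane-bound semaphorins of classes 4 to 7 were called higher in ganglion cells for 12 of 13 genes (beside 35.4% of all genes) and in amacrine cells for 11 of 13 (33.3%), with none lower in either. In rods and in cones 2 of the 13 were higher and 8 lower, beside 30.9% and 31.9% of all genes in rods and 32.7% and 27.7% in cones. In the other 6 classes 2 to 6 were higher and 3 to 5 lower, beside 16.6% to 29.6% and 14.4% to 23.9% of all genes. Sema5a and Sema5b, transmembrane semaphorins known to keep inner retinal neurites within their layer during development, were both highest in Müller glia. Sema5a had 639, 689, 677 and 561 CPM there (log2 fold change 4.33, SE 0.10), with fibroblasts next at 194 CPM. Sema5b had 185, 229, 183 and 163 CPM (4.34, SE 0.13), and ganglion cells followed at 24.9 CPM. In neither case did a Müller library overlap with a library of another class.

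Sema6a, a transmembrane ligand of Plxna2 and Plxna4, was highest in horizontal cells with 637, 471, 398 and 381 CPM (3.16, SE 0.11), and Müller glia, amacrine and ganglion cells held 280 to 312 CPM. Sema4a, whose loss is known to cause photoreceptor degeneration in mice, was highest in RPE with 102, 39.1, 106 and 78.1 CPM (3.71, SE 0.23); the second 2.5-month library lay within the Müller range of 32.9 to 48.3 CPM. Sema6c had its highest tested level in cones (24.3 CPM) and rods (19.8 CPM), whose libraries overlapped.

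Sema4b and Sema6d had melanocytes as top class, and in each of them the promoter window of 1 of 2 start sites listed by RefSeq holds the palindrome CACGTG, the E-box form that the pigment cell factor MITF is known to bind. Sema4b had 74.6, 128, 96.8 and 78.5 CPM in melanocytes and 32.1 CPM in Müller glia, the class in the second place. Sema6d had 302, 342, 142 and 223 CPM in melanocytes and 136 CPM in horizontal cells, with overlapping libraries. Both genes are shown because they share the class and the motif; they were chosen after their values were seen. The windows are the 250 bases before the start site, on the plus strand of GRCm38.p6 as RefSeq gives them, at chr7:80198338-80198587 for Sema4b and chr2:124089719-124089968 for Sema6d, and the capitals mark CACGTG.
Sema4b: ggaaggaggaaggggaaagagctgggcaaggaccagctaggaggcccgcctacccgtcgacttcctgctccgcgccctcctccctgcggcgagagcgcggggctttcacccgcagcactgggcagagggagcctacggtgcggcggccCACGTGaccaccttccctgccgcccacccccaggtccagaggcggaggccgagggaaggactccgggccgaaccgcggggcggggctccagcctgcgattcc
Sema6d: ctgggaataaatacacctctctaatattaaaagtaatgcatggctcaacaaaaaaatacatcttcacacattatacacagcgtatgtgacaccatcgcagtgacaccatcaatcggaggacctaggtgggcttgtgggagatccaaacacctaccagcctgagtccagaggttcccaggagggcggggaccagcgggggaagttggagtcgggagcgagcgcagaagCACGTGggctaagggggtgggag
The motif begins 102 bases before the start in Sema4b and 23 bases before it in Sema6d. Of the 65 members, 55 had a promoter in the RefSeq table, and CACGTG lay in 4 of them (7.27%: Epha8, Robo2, Sema4b and Sema6d), beside 6.86% of 27025 genes. The members with melanocytes as top class also include Ephb6 and Plxnc1, whose windows do not hold these letters, and Plxna1 and Sema3b. The letters TAATCC with GGATTA on the other strand, a photoreceptor homeobox motif, lay in 2 members (3.64%, beside 7.21%). The letters CATGTG with CACATG lay in 3 members (5.45%, beside 13.8%): Ephb4, Robo1 and Sema3e. Their top classes were fibroblasts, amacrine cells and Müller glia, and not melanocytes. ATCGAT lay in none, beside 0.836% of genes. These matches describe letters and not binding.

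Ephrin levels overlapped between many classes. Efna5, a glycolipid-anchored ephrin best known for its gradient in visual targets, had its largest fold change in ganglion cells (1.86, SE 0.09) with 526, 571, 532 and 407 CPM. Fibroblasts (mean 591 CPM) and RPE (545 CPM) were higher still, the libraries of 5 classes overlapped with those of fibroblasts, and cones and rods had means of only 14.4 and 19.7 CPM. Efna3 was the ephrin with ganglion cells apart from every other class, at 9.07 to 10.2 CPM.

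The transmembrane ephrin Efnb2 had 50.6, 52.0, 54.1 and 31.5 CPM in Müller glia (2.05, SE 0.12) and a mean of 46.5 CPM in amacrine cells. Its second 5-month library was the low one in both classes, at 33.5 CPM in amacrine cells. Efnb1 was highest in fibroblasts with 27.7, 19.0, 46.0 and 43.4 CPM (2.16, SE 0.21), where the libraries overlapped with those of Müller glia (14.6 to 32.0 CPM).

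Among the slit receptors, Robo1 (chromosome 16, 72308306 to 73046095) was highest in amacrine cells with 2071, 2190.2, 1966 and 1944 CPM (log2 fold change 3.87, SE 0.17), and horizontal cells followed with 1075 CPM. The libraries of these classes did not overlap, and bipolar cells, the top class of Slit2, held 74.0 CPM. Robo2 (chromosome 16, 73891839 to 74411825) was spread more evenly over neurons: 1424, 1584, 1309 and 1036 CPM in ganglion cells (2.53, SE 0.09), and means of 1100.4 CPM in bipolar and 1040.0 CPM in horizontal cells, with overlapping libraries. Both were called higher in ganglion, amacrine and horizontal cells and in fibroblasts, and lower in rods and cones.

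The 4 Unc5 netrin receptors had Müller glia (Unc5b and Unc5c), bipolar cells or horizontal cells as their top class. Unc5c had 1743, 1833, 1702 and 1405 CPM in Müller glia (4.14, SE 0.12) and 9.75 CPM in cones. Unc5d had 1202, 1349, 1109 and 974.9 CPM in bipolar cells (3.66, SE 0.16), with amacrine cells overlapping at 986 CPM and cones at 743 CPM (SD 78.6, n = 4). Unc5a had 67.5, 68.96, 88.8 and 81.9 CPM in horizontal cells (3.81, SE 0.23) and no UMI in melanocytes, which makes horizontal cells at least 26.9-fold higher against 3 counts over that class. Unc5b was highest in Müller glia with 32.0, 33.3, 39.0 and 28.6 CPM (3.49, SE 0.19) and next in cones with 24.0 CPM, beside 0.76 CPM in rods.

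In cones 4 of 5 tested Unc5 symbols were called higher (beside 32.7% of all genes), and in rods 1 (30.9%). Unc50, which is no netrin receptor, was 1 of the 4 in cones, and its class means ran only from 23.0 to 54.2 CPM. The 6 members called higher in rods were Sema3f, Unc5a, Plxnb1, Sema6c, Sema4c and Plxna2.

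Plexins are the receptors of semaphorins. Plxna4, which binds Sema6a, had 473, 421, 332 and 264 CPM in horizontal cells (4.29, SE 0.12), which were also the top class of Sema6a, and 2.09 CPM in cones. Plxna4os3, transcribed from within Plxna4 on the opposite strand, was also highest in horizontal cells (15.1 CPM); whether the counting used strand is not given in the sources used here, so reads of this pair cannot be told apart. Plxnd1, the endothelial receptor of Sema3e, was highest among tested classes in fibroblasts with 20.98, 28.0, 35.3 and 35.1 CPM (3.40, SE 0.23).

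Plxnc1, the receptor of Sema7a, had 255, 187, 168 and 180 CPM in melanocytes (3.05, SE 0.17) and 157 CPM in Müller glia, with overlapping libraries. Plxna1 had 90.3, 118, 110 and 88.7 CPM in melanocytes (2.82, SE 0.22), above RPE at 54.4 CPM. Plxna2 was highest in fibroblasts with 360, 612.5, 724 and 386 CPM, and it had 223 CPM in rods (SD 29.6, n = 4). Plxnb1 had 79.2 CPM in Müller glia and 42.4 CPM in rods, and Plxnb2 82.9 CPM in RPE.

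Class A Eph receptors had top classes among neurons, glia and cones. Epha3 (chromosome 16, 63543534 to 63864175) had 806, 889, 696 and 746 CPM in bipolar cells and 82.5 CPM in amacrine cells (5.58, SE 0.09, adjusted p = 1.108e-40). Epha6 (chromosome 16, 59653483 to 60605531) had 1288, 1344, 1108 and 1040 CPM in ganglion cells (5.13, SE 0.14) and 937 CPM in horizontal cells, without overlap of the libraries. Epha7 was highest in bipolar cells (529.8 CPM, SD 102, n = 4) and next in horizontal cells (183.5 CPM).

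Epha5, known for its graded expression along the nasal to temporal axis of ganglion cells, was highest in glia. It had 2539, 2534, 2544 and 2504 CPM in Müller cells and 983, 999, 933 and 962 CPM in ganglion cells, and no library of another class overlapped with the Müller range (3.93, SE 0.12). Epha10, an Eph receptor without kinase activity, had cones as its top class, with 146, 137, 137 and 133 CPM there (3.55, SE 0.12), 90.8 CPM in bipolar cells and 3.63 CPM in rods. Epha4 was highest in Müller glia (275 CPM), and Epha8 in horizontal cells (61.3 CPM) with overlapping amacrine libraries (48.8 CPM).

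Of 5 class B Eph receptors, 5 were called higher in fibroblasts (beside 28.3% of all genes), 4 in Müller glia (29.6%) and 4 in ganglion cells (35.4%), and 3 were lower in cones (27.7%). Ephb1 had 490, 662, 562 and 487 CPM in Müller glia (4.78, SE 0.13) and 205 CPM in ganglion cells. Ephb3 had 27.0, 24.0, 38.5 and 35.1 CPM in fibroblasts (3.12, SE 0.23), and horizontal cells held none, which makes fibroblasts at least 27.1-fold higher against 3 counts over that class. Ephb4, the ephrin-B2 receptor of veins, had 27.0, 23.0, 21.4 and 32.7 CPM in fibroblasts (3.61, SE 0.26). Ephb2 had 112, 150, 141 and 117 CPM in ganglion cells (1.98, SE 0.08) and 131 CPM in amacrine cells, and these overlapped.

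The members lie in long genes: their median span was 43.8 kb, against 23.9 kb for all genes with at least 50 UMIs, and 29 of 65 spanned more than 100 kb. Another counted gene overlapped 19 of the 65 members, among them Slit2, Epha6, Sema5a, Ephb1 and Unc5c. Without knowledge of strand use, reads of such pairs cannot be told apart. The shares of all genes above 100 kb or with such an overlap were not counted.

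Fibroblasts fell into 3 clusters, which are described without a test because they were drawn from other genes of the same nuclei. A cluster of 448 nuclei led by Ptn and Wnt10a held Robo2 at 2003 CPM (1272 to 2832 over libraries) and Plxna2 at 1321 CPM, beside 250.2 and 290.4 CPM in the cluster in the second place. A cluster of 334 nuclei led by Pi16 held Sema3c at 484 CPM and Sema6d at 222.5 CPM, beside 98.3 and 31.7 CPM. Sema3d stood at 276 CPM in the largest cluster, of 932 nuclei led by Myoc, a gene known from the trabecular meshwork and sclera. The fibroblast values given above are means over these clusters.

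Bipolar cells come in OFF cone, ON cone and rod types, which respond to dimming, to brightening and to single-photon signals. Of 34 members tested among them, 16 were called higher and 5 lower in OFF cone bipolar cells (11.4% and 10.2% of all genes), and 18 higher and 6 lower in ON cone bipolar cells (9.36% and 6.87%). In rod bipolar cells 5 were higher and 20 lower (13.5% and 14.8%). Slit2 was an OFF gene, with 8015, 8046, 8495 and 6814 CPM, beside 138 CPM in ON and 198 CPM in rod bipolar cells (log2 fold change against the mean of the other types 5.58, SE 0.18). Epha3 followed the same order, with 2007, 2129, 1933 and 1785 CPM in OFF, 382.5 CPM in ON and 22.2 CPM in rod bipolar cells (4.44, SE 0.10).

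Sema3e ran the other way, from 456, 442, 395 and 312 CPM in rod bipolar cells (3.88, SE 0.15) through 121 CPM in ON to 7.19 CPM in OFF cells. Epha7 marked ON cone bipolar cells with 916, 1249, 1142 and 805 CPM (1.98, SE 0.11), above 215 and 294 CPM in OFF and rod types. Plxna4 and Epha10 were highest in OFF cells (276 and 181 CPM) and lowest in rod bipolar cells (8.61 and 5.09 CPM). Sema3d, Epha8 and Plxnc1 were higher in ON cells, with 34.9, 28.3 and 85.3 CPM.

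Single clusters narrowed these patterns further, again as a description of the 7 bipolar clusters. Unc5d reached 4388 CPM (4017 to 4950 over libraries) in an ON cluster of 377 nuclei led by Skor2 and Grm6, and the next cluster held 2062 CPM. The same cluster held Sema3d at 91.6 CPM, beside 5.63 CPM in the next. Epha7 reached 1681 CPM in an ON cluster of 548 nuclei, and Sema6d 188 CPM in an OFF cluster of 225 nuclei led by Neto1.

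**Figure D3:**
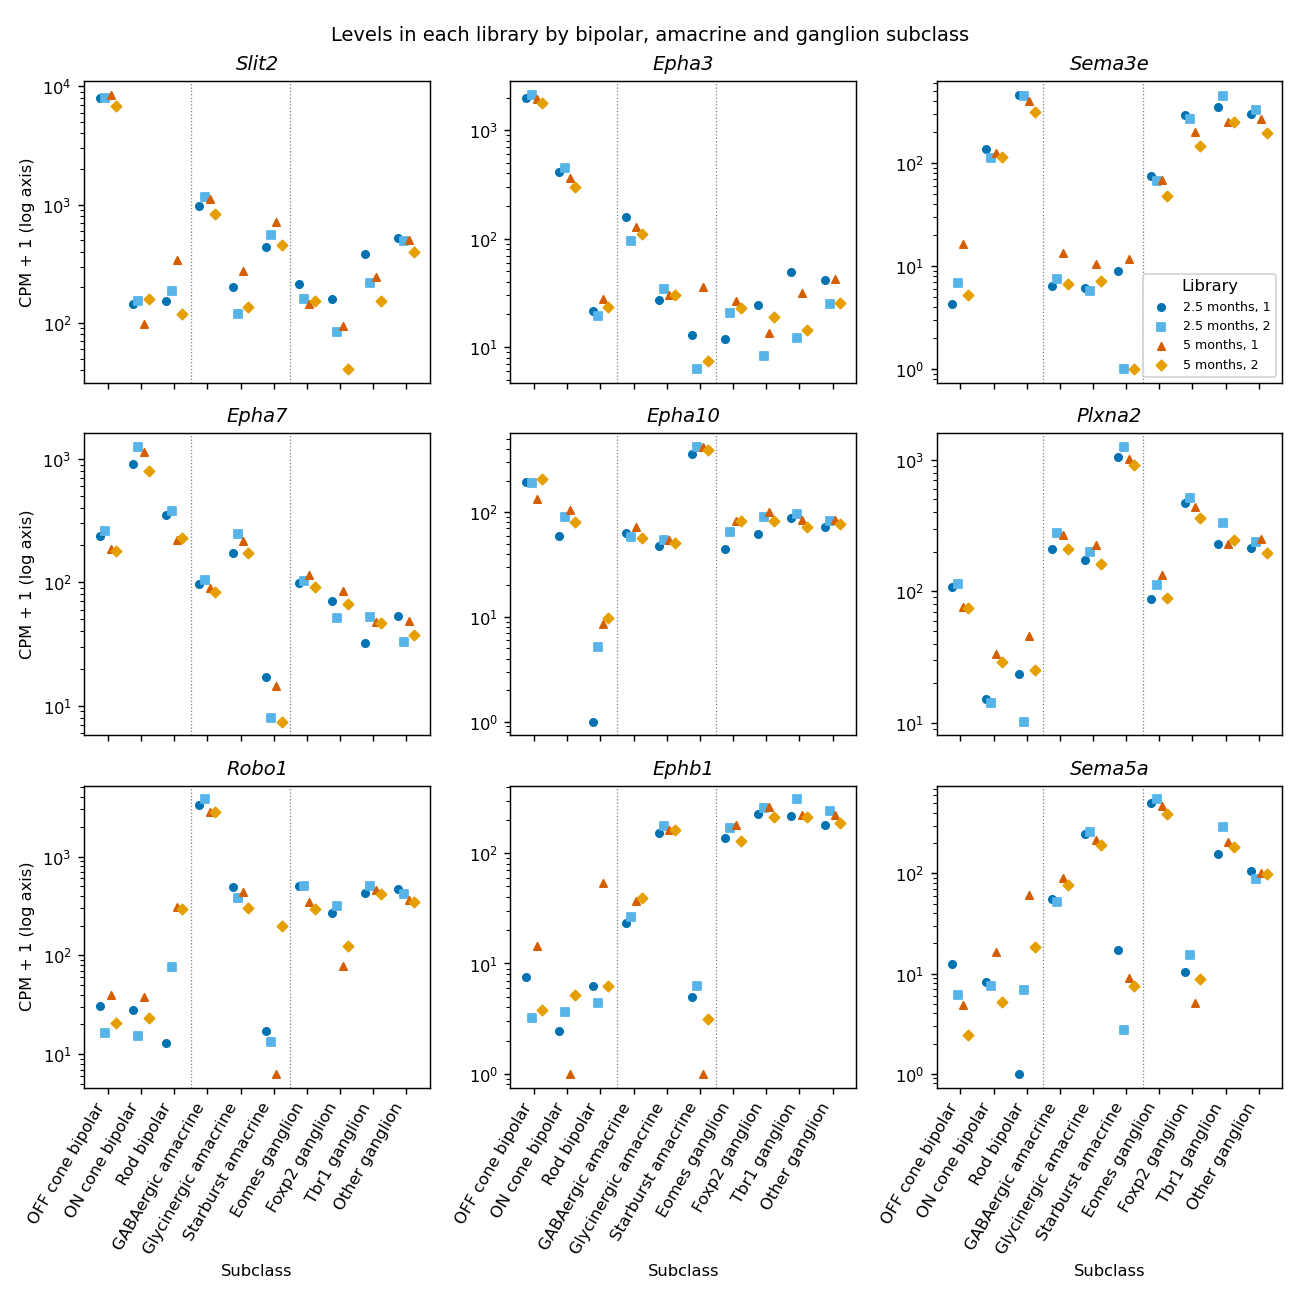
Levels of 9 members in each of 4 libraries (symbols) by bipolar, amacrine and ganglion subclass (horizontal axis), in CPM + 1 on a log axis. Slit2 and Epha3 are highest in OFF cone bipolar cells and Plxna2 and Epha10 in starburst amacrine cells, while Robo1 in rod bipolar cells spreads from 12.1 to 308 CPM between libraries.

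Amacrine cells use GABA or glycine, and the starburst cells, which also release acetylcholine, compute motion direction. Of 54 members tested, 29 were called higher and 10 lower in GABAergic cells (17.5% and 13.7% of all genes), and 20 higher and 11 lower in glycinergic cells (17.1% and 12.8%). In starburst cells 12 were higher and 25 lower (12.7% and 15.9%). Starburst cells stood out by Plxna2, with 1056 CPM (SD 143, n = 4) against 241 and 189 CPM in GABAergic and glycinergic cells, and by Epha10, with 397 CPM against 61.6 and 50.8 CPM. Plxna2 with its ligand Sema6a is known to shape starburst dendrites, and Sema6a was present there at 293 CPM. Efna5 stood at 1148 CPM in starburst cells, 794 in glycinergic and 225 in GABAergic cells.

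Several members were nearly missing from starburst cells. Unc5d had 28.1, 10.5, 50.8 and 66.7 CPM there (-4.56, SE 0.20), against 1165 CPM in GABAergic and 825 CPM in glycinergic cells. Epha6 had 12.03, 6.99, 2.67 and 23.6 CPM (-5.07, SE 0.21), against 576 and 295 CPM. Unc5b had no UMI in starburst cells and 16.2 CPM over the GABAergic sums, at least 8.97-fold higher against 3 counts over the starburst cells. Sema3a and Slit1 were also lower there, with 2.18 and 0.54 CPM.

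Robo1 marked GABAergic cells with 3348, 3794, 2846 and 2840.3 CPM (4.31, SE 0.22), against 400 CPM in glycinergic and 57.3 CPM in starburst cells. Within them a cluster of 348 nuclei led by Olfm3 reached 8347 CPM (7011 to 9227), and it also held Sema6a at 989 and Unc5c at 1573 CPM. Slit2 was highest in another GABAergic cluster, of 753 nuclei led by Maf and Tnc, with 2860 CPM beside 709.7 CPM in the next of the 14 amacrine clusters. Sema6d and Slit1 were also higher in GABAergic cells, with 97.3 and 39.2 CPM.

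Ephb1 and Sema5a marked glycinergic cells. Ephb1 had 150, 176, 161 and 160 CPM there (3.98, SE 0.17), against 30.5 CPM in GABAergic and 2.85 CPM in starburst cells, and Sema5a had 226, 67.1 and 8.06 CPM in the same order. A glycinergic cluster of 423 nuclei led by Dnah11 held Sema3d at 167 CPM and Ntn4 at 172 CPM, each at least 8-fold above the next amacrine cluster. Robo3, a receptor known from midline crossing, had 13.7, 6.59, 5.81 and 13.4 CPM in glycinergic cells and no UMI in the GABAergic sums, at least 51.3-fold higher against 3 counts. Its log2 fold change was 7.44 (SE 0.75, adjusted p = 5.512e-08 by edgeR's quasi-likelihood test), but DESeq2 gave an adjusted p of 0.175.

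Ganglion cells were split by the transcription factors Eomes (linked to light-sensing melanopsin cells), Tbr1 and Foxp2. Whole subclusters were named by the factor raised most, at a log2 fold above 1. Eomes subclusters held 28.5 to 196 CPM of Eomes, and Tbr1 subclusters 16.9 to 45.4 CPM of Tbr1. A Tbr1 subcluster of 59 nuclei also held Foxp2 at 239 CPM. The Eomes subcluster led by Trpc7 and Opn4 had 32 of the 205 Eomes nuclei. Of 39 members tested, 14 were called higher and 8 lower in Eomes cells (8.41% and 7.04% of all genes), and 8 higher and 9 lower in Foxp2 cells (7.49% and 6.92%). In Tbr1 cells 5 were higher and 7 lower (5.75% and 4.1%), and in the rest 11 and 9 (5.6% and 3.48%). Eomes cells had the most Sema5a, with 503, 548, 472 and 389 CPM (3.14, SE 0.12), against 207 CPM in Tbr1 and 8.96 CPM in Foxp2 cells. They also had the most Unc5d (1320 CPM, against 225 to 506 CPM in the others) and Slit3 (39.4 CPM), and less Sema6a (36.0 CPM, against 314 to 356.5 CPM).

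Foxp2 cells had the most Sema3d, at 65.5, 72.1, 22.7 and 29.7 CPM (4.40, SE 0.44), with both 2.5-month libraries above both 5-month ones at 60 UMIs in all. They had less Sema3a (10.5 CPM, against 90.1 to 218 CPM), Sema5a and Sema6d. Tbr1 cells had more Sema3e (319.5 CPM) and less Plxnc1 (14.5 CPM) than the mean of the others. The remaining ganglion cells had more Slit2 (525, 497, 499 and 401 CPM; 1.65, SE 0.10) and Sema3a (185 CPM). A cluster of 228 ganglion nuclei held Robo1 at 34.7 CPM, against 418 CPM in the other cluster of 1561 nuclei. Both counts include the nuclei that were left out of the ganglion class, 189 in all, because their subclusters were led by genes of other classes.

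Cones of the mouse carry both opsins in amounts that follow the dorsal to ventral axis, with S opsin (Opn1sw) higher ventrally and M opsin (Opn1mw) higher dorsally. The cone nuclei were therefore divided into 1032 with more S opsin and 2038 with more M opsin UMIs. This is a division of a range and not of types: Opn1sw stood at 5295 CPM in the S and 839 CPM in the M group, Opn1mw at 1722 and 7038 CPM, 77 nuclei had no excess of either, and 122 differed by 1 UMI. Of 20 members tested, 1 was higher and 3 were lower in S cones, beside 2.33% and 2.08% of all genes (4.41% in either direction). At an unadjusted p under 0.05 there were 6 of 20, beside 13.8% of all genes.

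Epha5 showed the largest of these differences, with 45.5, 34.0, 37.7 and 36.3 CPM in S cones and 163, 154, 125.5 and 133 CPM in M cones (log2 fold change -1.89, SE 0.14, adjusted p = 2.869e-14 by edgeR's quasi-likelihood test). Epha7 had 13.0, 15.1, 25.7 and 20.3 CPM in S and 42.7, 54.3, 49.2 and 39.1 CPM in M cones (-1.22, SE 0.22). Unc5d had 562, 528.5, 573 and 487 CPM in S and 809, 914.5, 892 and 733 CPM in M cones (-0.63, SE 0.06). For each of the 3 genes all 4 S groups lay below all 4 M groups.

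Epha8 was the member higher in S cones, with 13.0, 22.7, 20.5 and 20.3 CPM against 0, 6.26, 3.57 and 5.05 CPM in M cones (2.22, SE 0.37, adjusted p = 3.183e-05), again without overlap. Rods held 34.5 CPM of Epha5 and 48.8 CPM of Epha7. The S cone level of Epha5 was near the rod level and that of Epha7 below it. Under 10 other settings 3 to 5 members were called, and each of these 4 genes kept its call wherever it could be tested.

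Of the class B genes known for dorsal to ventral gradients in the developing retina, Ephb2 was tested in cones and not called. Ephb2 had 29.9 CPM in S and 24.8 CPM in M cones (0.30, SE 0.23, adjusted p = 0.65). Efnb1, Efnb2, Ephb1 and Ephb3 were below the filter, with 8, 4, 8 and 3 UMIs in S cones and 25, 10, 23 and 8 in M cones. Efna5 had 13.9 and 14.0 CPM (0.12, SE 0.31, adjusted p = 0.93).

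**Figure D4:**
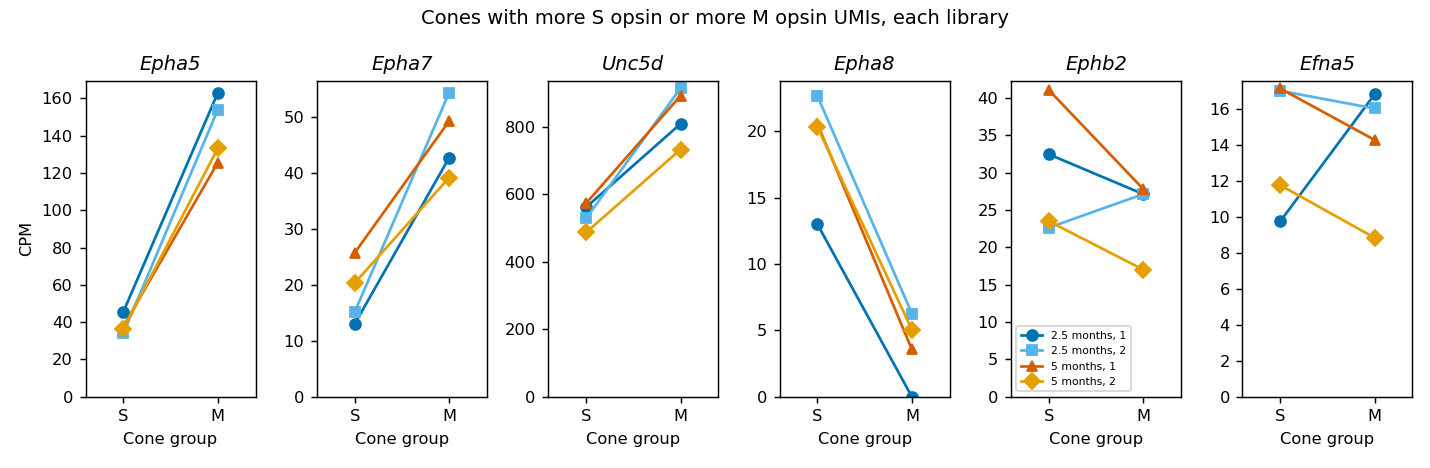
Levels of 6 members in cones with more S opsin or more M opsin UMIs (horizontal axis), in CPM, with a line for each of 4 libraries. Epha5, Epha7 and Unc5d are lower and Epha8 is higher in S cones in every library, and the lines of Ephb2 and Efna5 cross.

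Between 2.5 and 5 months, 4 of 386 tested pairs of a member and a class were called by edgeR's quasi-likelihood test, all higher at 5 months (log2 fold changes below are 5 months against 2.5 months). Of all gene and class pairs 0.0994% were called and 0.075% were called higher. At an unadjusted p under 0.05 there were 38 pairs (25 of them higher), beside 6.73% of all pairs. The 4 called pairs are Epha5 in melanocytes, Robo1 in bipolar cells, and Epha6 and Robo1 in RPE. In each of them the level was below that of the gene's top class, and it came from few nuclei. Fits with a library left out leave a single library at an age, so their counts of calls are not given.

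Epha5 in melanocytes had 19.6, 10.7, 103 and 208 CPM (3.44, SE 0.51, adjusted p = 0.000366 by edgeR's quasi-likelihood test), from 5, 2, 16 and 82 UMIs. In the 5-month libraries 100% and 79.3% of these UMIs came from 3 nuclei. Robo1 in bipolar cells had 23.3, 32.5, 139.5 and 100.5 CPM (2.02, SE 0.25, adjusted p = 0.0158), and 41.5% and 76.6% of its 5-month UMIs came from 3 nuclei. The groups of both pairs did not overlap.

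Epha6 in RPE had 4, 1, 35 and 46 UMIs (3.76, SE 0.53, adjusted p = 0.0199), and 3 nuclei held 97.1% and 73.9% of the 5-month UMIs. Robo1 in RPE had 5, 6, 116 and 69 UMIs (3.99, SE 0.65, adjusted p = 0.0379), with 96.6% and 69.6% in 3 nuclei. Of the nuclei in these classes, 2.38% to 11.7% held any UMI of the gene. Markers of amacrine cells, the top class of Robo1, had 834, 812, 921 and 750 CPM in RPE, with none of 11 markers at 0. In bipolar cells they had 463, 442, 697 and 497 CPM, higher in both 5-month libraries. The 12 ganglion cell markers, of the top class of Epha6, had 341.5, 172, 511 and 424 CPM in RPE, with none at 0 and both 5-month libraries above both 2.5-month ones. The 11 Müller markers, of the top class of Epha5, had 1146, 1031, 1227 and 1776 CPM in melanocytes, again higher in both 5-month libraries and with none at 0. Their part in the calls was not tested.

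With the limit on the doublet score lowered from 0.25 to 0.15, a choice made after the data were seen, none of the 4 pairs was called. The UMIs were then 5, 2, 2 and 61 for Epha5 in melanocytes and 41, 57, 47 and 183 for Robo1 in bipolar cells (1.88, adjusted p = 0.333). For Epha6 in RPE they were 1, 1, 13 and 5, and for Robo1 in RPE 2, 1, 6 and 16, and 3 of the pairs no longer passed the filter on low counts. The only pair called at that limit was Unc5c in melanocytes (2.67, adjusted p = 0.00436). At the limit of 0.25 and without the second 5-month library, the log2 fold change of Epha5 in melanocytes was 2.72. That fit leaves a single library at 5 months.

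**Figure D5:**
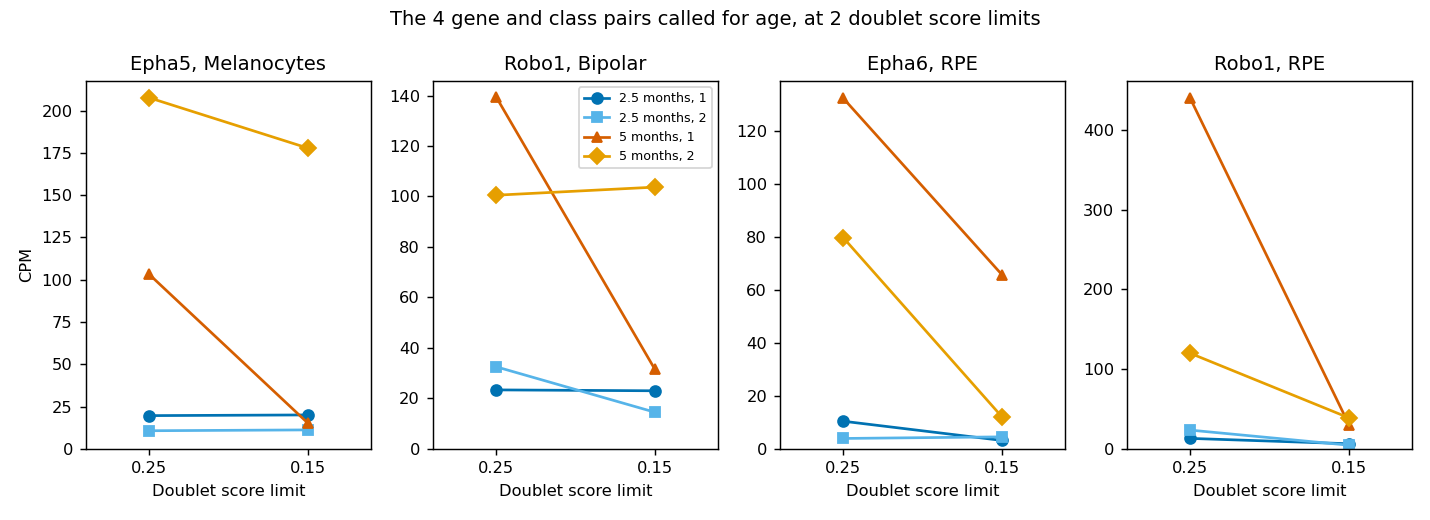
Levels of the 4 gene and class pairs called for age, in CPM (vertical axis), in each of 4 libraries at doublet score limits of 0.25 and 0.15 (horizontal axis). At 0.15 the first 5-month library falls to 15.3 CPM for Epha5 and 31.6 CPM for Robo1 in bipolar cells, while the second stays at 178 and 104 CPM.

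The pairs next in order were not called. Ntn4 in fibroblasts had 210, 154, 68.5 and 68.4 CPM (-1.38, SE 0.27, adjusted p = 0.20), and the groups did not overlap. With the second 5-month library left out, which leaves a single library at that age, its log2 fold change was -1.381. Unc5a in amacrine cells had 27.0, 28.3, 48.1 and 46.7 CPM (0.74, SE 0.17, adjusted p = 0.46), also without overlap.

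Other genes of these pathways were taken from 3 lists. Of 10 tested co-receptors of netrins and semaphorins (11 listed), 7 were called higher and 3 lower in melanocytes (16.6% and 16.7% of all genes), 6 higher and 2 lower in fibroblasts (28.3% and 23.0%), and 2 higher and 7 lower in rods (30.9% and 31.9%). Nrp2, co-receptor of Sema3f, had 855 CPM (SD 67.2, n = 4) in melanocytes (4.57, SE 0.12), Met, a receptor kinase that can pair with B plexins, 1087 CPM there (6.86, SE 0.12), and Nrp1 674 CPM in fibroblasts (4.46, SE 0.07). Cd72, a receptor of Sema4d, was also higher in melanocytes (29.8 CPM).

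Of 16 tested other guidance ligands and partners (18 listed), 12 were higher and 1 lower in ganglion cells (35.4% and 26.8% of all genes), 11 higher and 1 lower in amacrine cells (33.3% and 23.5%), and 2 higher and 12 lower in rods (30.9% and 31.9%). Lrrc4, a netrin-G ligand known from horizontal cell axon tips, had 1795 CPM in horizontal cells (5.37, SE 0.09), while Lrrc4c had 3932 CPM in ganglion cells (3.85, SE 0.18). Ntng1, the partner of Lrrc4c, had 1913 CPM in bipolar cells (4.68, SE 0.11), and the chemokine gene Cxcl12 had 160 CPM in fibroblasts (5.06, SE 0.17).

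Of 37 tested intracellular effectors (38 listed), 27 were higher and 7 lower in Müller glia (29.6% and 23.9% of all genes), and 26 higher and 8 lower in ganglion cells (35.4% and 26.8%). In amacrine cells 24 were higher and 8 lower (33.3% and 23.5%), and in rods 7 were higher and 26 lower (30.9% and 31.9%). Srgap1, which binds Robo receptors, had 823 CPM in ganglion cells (5.83, SE 0.09). Vav3 and Chn2, regulators of small GTPases, were highest in horizontal cells with 360 and 338 CPM.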

How the data were processed

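Single nucleus RNA libraries of 4 mouse left eyes were analysed from the deposited matrices, which hold raw UMI counts per gene and barcode. Per the file headers, the authors made these counts with Cell Ranger 7.1.0 for both 2.5-month and 4.0.0 for both 5-month libraries. The build is mm10; whether introns or strand were used is not given in the sources used here. Library totals ran from 19608067 to 36320257 UMIs.

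Barcodes with under 300 genes or over 5% mitochondrial UMIs were removed, and then nuclei with a scrublet score above 0.25 (expected doublet rate 0.06). That limit was set after the scores were seen, because the automatic thresholds did not separate doublets in 1 library. Counts were scaled to 10000 per nucleus, and 2000 variable genes (without the members and their pathway lists), 30 principal components and 15 neighbours were used for Leiden clustering at resolution 1 (scanpy 1.11.5, leidenalg 0.10.2). Clusters of at least 50 nuclei, with a called doublet share of at most 0.3 and at least 3 markers of a class raised (log2 fold above 1), were named, except those with pigment genes without Sox10 or with immune and epithelial genes together. Ganglion nuclei (189) in subclusters led by genes of other classes were left out. Clusters come from other genes of the same nuclei and are not independent of the members.

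The counts of each class in each library were added up and tested with edgeR 4.0.16 (quasi-likelihood, TMM, filterByExpr, R 4.3.3) with Benjamini-Hochberg adjustment over all genes, 2-sided at 0.05. Class, subclass and cone fits had the library as a block, and the age fit compared 2 libraries with 2. P-values measure the spread between these 4 libraries. On simulated counts the class fit recovered 95 of 100 genes changed 2-fold (13919 genes tested). The age fit in amacrine cells recovered 32 of 100 at 2-fold and 99 of 100 at 4-fold (15434 genes). In the class simulation the change was made in ganglion cells only, and every gene was equal in the other classes. Ganglion sums held 2285817 to 5843616 UMIs per library, and melanocyte sums went down to 154906. The class rate therefore does not describe shallower classes. The simulated counts had the same spread for every gene and no library effects, and changed genes had a minimum expected count. Amacrine cells had the most UMIs of the tested classes, so these rates do not describe age tests in shallower classes or of sparse genes. Alternatives were DESeq2 1.42.0, RLE scaling, no filter on low counts, sums thinned to equal depth, other clustering and nucleus filters, doublets kept, and each library left out. Keeping doublets added no nuclei to the ganglion subclasses, so that alternative could not change their results. A stricter doublet limit of 0.15 and a fit of the neural retina alone were chosen after seeing the data. Floors of 3 counts cover counting error only.

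The members and gene lists were chosen with earlier results of these data known. Named were up to 4 members per family of largest log2 fold change in a class with at least 20 CPM, up to 5 called members per subclass or cone comparison, every age call and the 5 lowest age p-values. Efnb1, Efnb2, Ephb1, Ephb2, Ephb3, Efna5 and Epha5 were always given in cones. Other members named were chosen after their values were seen. The endothelial and striated muscle clusters, with fewer than 20 nuclei in 1 of the libraries, were not tested. One result on the pathway lists is not reported here.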

Additional observations from a re-analysis of the deposited data

Results flagged for a closer look

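Some members were higher in clusters outside the 10 tested classes than in any of them. These values are pooled over the libraries, with no test, because the clusters were small or had no name. In the endothelial cluster Plxnd1 had 182.7 CPM (exact Poisson interval 145.6 to 226.5, counting error only), Efnb2 149.7 CPM and Ephb4 125.5 CPM, an artery ligand and its vein receptor among them. Sema7a had 96.88 CPM there, Sema3g 66.05 CPM, Efna1 61.65 CPM and Robo3 50.64 CPM. Robo4, the Robo known from vessels, had 94.67 CPM, against 0.284 CPM in amacrine cells, its highest tested class.

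Sema6c had 70.8 CPM in the striated muscle cluster. In 3 clusters without a name, Efna5 reached 1926 CPM, Epha4 566.4 CPM and Epha2 41.14 CPM.

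In 2 of 34 members examined, 1 library of the top class stood apart from the other 3 (by Dixon's 95% limit, which chance gives in about 1 of 20 groups). Efnb2 had 31.48 CPM in Müller glia of the second 5-month library, against 50.6 to 54.1 CPM. Slit3 had 410.9 CPM in fibroblasts of the same library, against 837 to 918 CPM.

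Of 20 members examined in cones, 2 had a difference between S and M cones of the same sign in both libraries of each age and of opposite sign between the ages, and that change was not tested. The share of all genes with this pattern was not counted, and the signs of 4 libraries can fall this way by chance. The log2 differences over all libraries were 0.18 for Sema3f (0.1798) and -0.04 for Unc50 (-0.03867), and neither was called.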

How the results depend on the processing

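No result reversed. All named genes of the class and cone comparisons kept their call under every alternative that could test them. In sums thinned to equal depth, members called higher numbered 20 in amacrine, 12 in bipolar, 2 in cones, 19 in fibroblasts, 21 in ganglion, 9 in horizontal cells, 15 in Müller glia, 9 in RPE and 1 in rods, of 34 tested, so that fewer genes were tested. With a log2 fold change above 1 required, 17 members were higher in bipolar cells and 6 in cones. Of all 15057 genes, 1886 and 1991 were. Rod bipolar cells had 8 members higher with no filter on low counts, beside 1569 of 21384 genes. Thinned sums gave 12 members in GABAergic and 8 in glycinergic cells (24 tested), beside 786 and 748 of 5464 genes. The remaining ganglion cells had 7 in thinned sums (26 tested), beside 230 of 4899 genes. DESeq2 also gave 7 there, beside 381 of 8882 genes. Leaving out a library gave 5 to 7 members in rods, 8 to 10 in cones and 6 to 10 in Foxp2 cells. Over all genes these fits gave 4573 to 5251 in rods and 4246 to 4698 in cones, of 14695 to 15497. In Foxp2 cells they gave 495 to 615, of 8131 to 9634.

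For age, 11 pairs were called with no filter and 1 at the stricter doublet limit. Without the filter, calls over all genes rose in every class. In RPE they went from 30 higher and 4 lower of 5871 genes to 134 and 20 of 18036. In bipolar cells they went from 8 and 2 of 11718 to 112 and 57 of 21384. At the stricter limit melanocytes, the class of the pair called there, had 9 higher and 3 lower of 4518 genes. Replicate numbers name different animals at each age and correlations of same-numbered libraries ran from -0.104 to 0.175; a replicate block gave 4 calls and changed none. Epha5 in melanocytes had an adjusted p of 0.0875 by DESeq2, Robo1 in bipolar cells 0.113 in thinned sums and Robo1 in RPE 0.428 with doublets kept. Ntn4 in fibroblasts had 0.00199 with no filter. Among subclasses, Unc5b in glycinergic cells had 0.0758 with doublets kept and 0.0518 without the second 2.5-month library. Sema3d in Eomes cells had 0.0548 by DESeq2 and 0.0712 to 0.172 without single libraries. Where no reason is given, the cause was not tested. Depth limits the melanocyte, RPE and horizontal classes most, as their sums were the smallest.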
